A study of Homo sapiens with 6 samples.

Results

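The genes described are 10 genes of lipid droplets and of lipolysis, the release of fatty acids from stored fat: G0S2, HILPDA, PNPLA2, ABHD5, LIPE, PLIN2, PLIN3, CIDEC, DGAT1 and DGAT2. They were taken by symbol from a table of 58051 genes, and all 10 symbols were matched. G0S2 was put on the list because its fall was among the largest in the comparison reported here, so its change is a description and carries no test. The other genes were grouped with it by function, with results of the same comparison known. The cells were OE33, an established line from a human oesophageal adenocarcinoma with epithelial features, and RNA was sequenced from poly(A)-enriched libraries. In 3 libraries the cells were untreated, and in 3 they had been given APX2009 at 15 µM for 24 h. APX2009 is a small molecule made to block the redox function of APE1, the product of APEX1, which also has a role in DNA repair. Replicates are described by the submitters as independent biological ones, no vehicle is named for the controls, and no other cell line or compound was compared. The comparison asks how transcript levels differ after exposure to the compound, and it cannot show which differences depend on APE1 or on its redox function. APEX1 mRNA, in CPM (its counts scaled to the size of the library), averaged 180.5 ± 3.48 without and 173 ± 6.70 with the compound (SD, n = 3), with a log2 difference of -0.06 ± 0.06 (SE) that did not pass (edgeR adjusted p = 0.469).

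As background, neutral fat is kept in droplets bounded by a single layer of phospholipid and coated with proteins of the perilipin family. DGAT1 and DGAT2 make triglyceride by adding the last fatty acid to diacylglycerol, and the lipase PNPLA2, also called ATGL, starts its breakdown. ABHD5 activates PNPLA2 while G0S2 and HILPDA inhibit it, LIPE acts on the diacylglycerol that PNPLA2 leaves, and CIDEC drives the fusion of droplets. Cancer cells of epithelial origin are known to hold such droplets and to use PLIN2 and PLIN3 as coats.

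The sequences before the starts of G0S2 and PLIN2 are shown because these genes had the largest fall and the largest rise of the group. They are RefSeq promoter sequences on GRCh38.p14, written 5′ to 3′ in the direction of the gene, with matched letters in capitals. In G0S2 (chr1:209675162-209675411, plus strand) the capitals mark GCGTG or its reverse CACGC, the core bound by the aryl hydrocarbon receptor, and TGACNNNGC, the core of the antioxidant response element. In PLIN2 (chr9:19127577-19127742, minus strand, ahead of the earliest exon of transcript PLIN2-201) they mark ACGTG, the core bound by hypoxia-inducible factors. A further 30 bases of PLIN2 (chr9:19127544-19127573, minus strand, in that exon) show the E-box CACGTG.
G0S2: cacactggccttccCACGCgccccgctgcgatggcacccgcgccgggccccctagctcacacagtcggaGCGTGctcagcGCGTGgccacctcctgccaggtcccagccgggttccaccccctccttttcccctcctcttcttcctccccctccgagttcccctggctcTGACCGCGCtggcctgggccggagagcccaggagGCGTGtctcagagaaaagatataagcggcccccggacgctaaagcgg
PLIN2: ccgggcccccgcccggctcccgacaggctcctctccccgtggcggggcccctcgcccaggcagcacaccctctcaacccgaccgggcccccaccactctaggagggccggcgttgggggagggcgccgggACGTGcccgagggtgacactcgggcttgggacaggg
PLIN2, E-box: gctgccgcgggtCACGTGctgcggaggctt

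Promoter windows of 250 bases were found for 7 of the 10 genes, in 11 windows, and were searched on both strands beside all 35116 RefSeq windows of that length. Besides the motifs named below, the GC box GGGCGG, the CCAAT box and the TATA box TATAAA were searched, so each share is 1 of several looks. PLIN2 held 2 GC boxes and 1 TATA box, and 24.3% and 10.7% of all windows held at least as many. A LIPE window held 3 CCAAT boxes, and the G0S2 window held none of these further motifs. The G0S2 window held 4 matches to GCGTG, and 1.13% of all windows held at least as many. It held 1 match to TGACNNNGC, a motif present in 10.9% of all windows. Neither motif was particular to G0S2 within the group. The PLIN3 window held 3 matches to GCGTG and 1 to TGACNNNGC, and a CIDEC window held 1 to TGACNNNGC. Windows of PLIN2 and ABHD5 held 1 match to GCGTG. The PLIN2 window held 1 E-box CACGTG, present in 6.34% of windows, and 3 matches to ACGTG, of which 2 are the E-box itself read on both strands; 1.55% of windows held at least 3. The exact direct repeat AGGTCANAGGTCA, read by PPAR receptors, was in none of the windows of these genes and in 0.0171% of all windows. Both printed windows were rich in G and C, at 69.2% for G0S2 and 78.0% for PLIN2 over 250 bases, against a median of 58.0% over all windows. A match describes letters in a window and shows no binding. In the 3′ untranslated region, the pentamer ATTTA, the core of AU-rich elements that govern mRNA decay, was absent from 6 of the 10 genes, G0S2, HILPDA and PLIN2 among them. At least 1 copy was found in 67.0% of the 12218 tested genes with such a region, and ABHD5 held 9 copies in 4193 bases. Only the transcript with the longest coding sequence was searched for each gene. The regions without a copy held 392 bases in G0S2, 423 in CIDEC, 478 in PLIN2, 851 in PLIN3, 956 in HILPDA and 1970 in DGAT1. Over tested genes the median was 989.5 bases and 1.48 copies per kilobase, and the part of length in the absence was not tested.

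The libraries held 21158750 to 26111656 gene counts, of which 11450 to 13455 fell on the 10 genes. APX2009 replicate 1 stood apart from the other libraries. At least 1 count was seen for 25015 genes in it, against 21845 to 22446 in the others, and ERCC spike-in RNA made up 0.315% of its counts, against 0.480% to 0.752%. All 8 fibroblast markers had a count in it, against 2 or 3 in the others, with 42 counts of DCN where the other libraries had 0. So did all 8 endothelial markers, against 2 to 5 in the others. Of 8 leukocyte and macrophage markers 7 had a count in it, against 4, and of 8 adipocyte markers 5, against 2 or 3. All 8 epithelial markers were detected in every library. At an edgeR adjusted p under 0.05, 5 of them were lower after APX2009 (KRT7, KRT8, KRT18, KRT19 and CDH1), beside 17.4% of all tested genes. The others did not pass: EPCAM was 447 ± 12.4 and 446 ± 4.84 CPM, CLDN4 1163 and 1109 CPM, and ESRP1 224 and 231 CPM. Summed epithelial markers were 28662 to 29428 CPM in untreated and 16342 to 20193 CPM in treated libraries. The adipocyte genes ADIPOQ, LEP and TRARG1 had no count in any library. The 8 adipocyte markers summed to 19.3 to 19.8 CPM in untreated and 14.2 to 15.5 CPM in treated cells, mostly CFD, and LPL had 41 counts in APX2009 replicate 1 and 0 elsewhere. Summed fibroblast markers were 8.43 to 12.7 and 9.16 to 19.5 CPM, leukocyte and macrophage markers 4.58 to 4.87 and 3.89 to 4.53 CPM, and endothelial markers 7.03 to 7.79 and 7.62 to 8.27 CPM. The part of these differences in the results below was not tested. Results without APX2009 replicate 1 are also given where a call or a sign among the 10 genes moved, and for some other genes. The size of a change can depend on that library where no such value is given.

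G0S2 transcript was 3.01-fold lower after APX2009, the droplet coat gene PLIN2 rose, and both triglyceride synthases fell. Of the 8 other genes with enough counts to be tested, 2 were higher (PLIN2 and PNPLA2) and 2 lower (DGAT1 and DGAT2) at an edgeR adjusted p under 0.05, while CIDEC was too low for the test. Over all 14773 genes tested 34.7% passed, 17.2% as higher and 17.4% as lower, and since the genes were chosen with this comparison in view nothing is read from their count. The median log2 change of these 8 and G0S2 was 0.13, against 0.02 over all genes tested. In 5 of the 8 (PLIN2, PNPLA2, DGAT1, DGAT2 and HILPDA) the 3 treated and the 3 untreated values did not overlap, which held for 49.4% of all genes tested. Without APX2009 replicate 1, HILPDA and PLIN3 passed as well, both higher. Without untreated replicate 3, PNPLA2 and DGAT2 did not pass. In a bulk library, a fall of a transcript in every cell and a loss of the cells that hold it cannot be told apart.

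**Figure D1:**
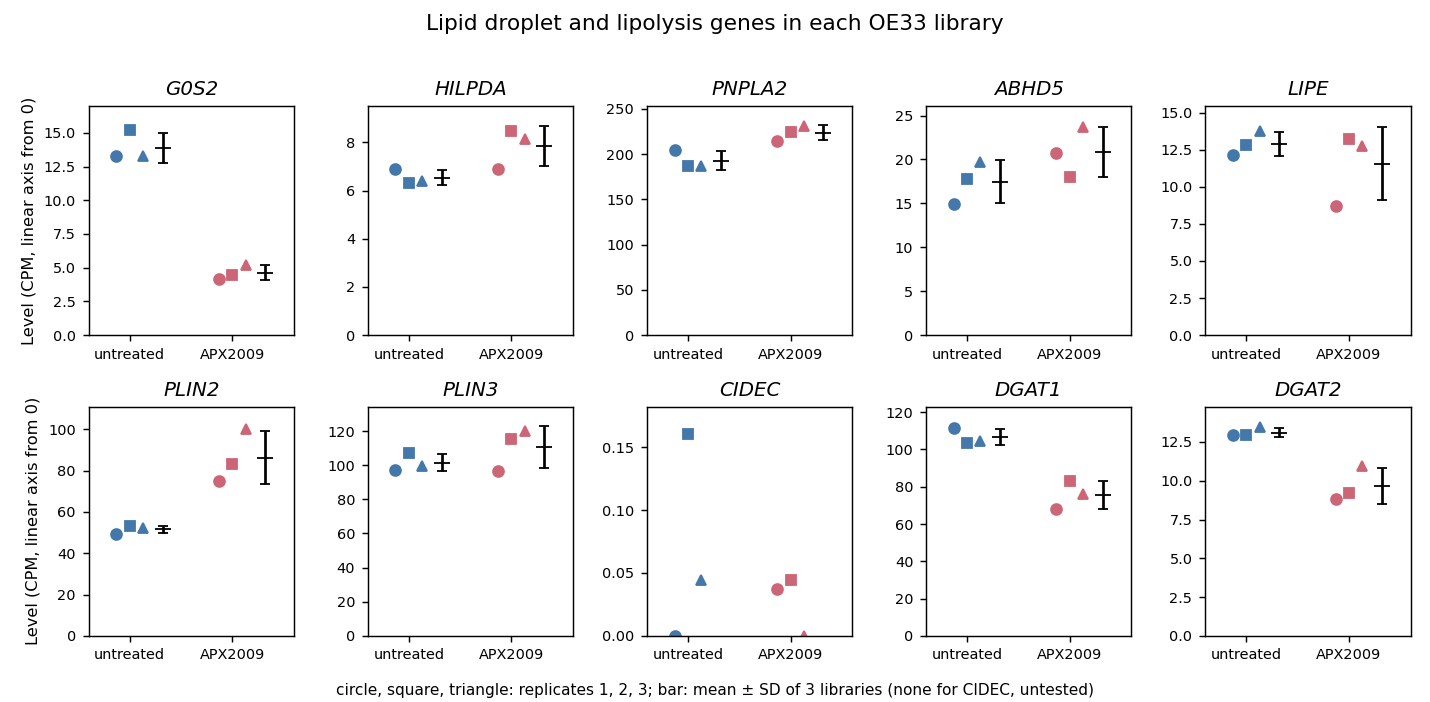
Level of each of the 10 genes in CPM (linear axis from 0, a scale of its own per gene) in the 3 untreated and 3 APX2009 libraries, with the mean ± SD beside the points of tested genes. The G0S2 points lie between 13.3 and 15.2 CPM in untreated and between 4.19 and 5.22 CPM in treated cells, and the PLIN2, DGAT1 and DGAT2 groups are also apart.

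The inhibitors of PNPLA2 did not move alike. G0S2 (ENSG00000123689, chromosome 1, 209675420 to 209676388, GRCh38), whose protein binds PNPLA2 and blocks its activity, stood at 13.3, 15.2 and 13.3 CPM in untreated replicates 1, 2 and 3 and at 4.19, 4.49 and 5.22 CPM in treated replicates 1, 2 and 3. Every treated library lay far below every untreated one. Mean levels were 13.9 ± 1.11 CPM without and 4.63 ± 0.529 CPM with APX2009 (SD, n = 3). The difference on the log2 scale was -1.59 ± 0.13 (SE), or 3.01-fold lower, and ranked 27 among the falls of 14773 genes. These values rest on 297, 378 and 298 counts in untreated and 112, 101 and 109 in treated libraries. Leaving out any single library gave log2 changes of -1.68 to -1.51, and -1.52 without APX2009 replicate 1. The gene sits within the span of an antisense gene, AL031316.1, with no annotated exon of that gene overlapping its exons, but 26 bases of an AL031316.1 exon lie within the promoter window printed above.

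HILPDA (ENSG00000135245, chromosome 7, 128455849 to 128458418), a small droplet protein induced by low oxygen that also inhibits PNPLA2, stood at 6.88, 6.31 and 6.41 CPM in untreated and 6.89, 8.49 and 8.14 CPM in treated libraries. Treated replicate 1 was level with untreated replicate 1, and the other treated libraries were higher. The log2 change of 0.26 ± 0.13 (SE) did not pass (edgeR adjusted p = 0.136), but 0.35 ± 0.12 did so without APX2009 replicate 1 (edgeR adjusted p = 0.0384). Per length, G0S2 was 5.10 ± 0.589 times as abundant as HILPDA in untreated and 1.42 ± 0.138 times in treated libraries (ratio of RPKM over all exons, SD, n = 3). Over the longest annotated transcript the mean ratios were 3.38 and 0.938, so which of them was the more abundant in treated cells depends on the length used.

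The genes most like G0S2 over the 6 libraries were MMP7, NCAPG, COL17A1, AC009093.4 and ASF1B. Likeness was the Euclidean distance between log2 CPM values, each gene being set to 0 at its own untreated mean, and it was 0.34 to 0.41 for these 5, against a median of 2.72 over 9772 genes. MMP7 codes for a secreted matrix protease, COL17A1 for a hemidesmosome collagen, NCAPG for a condensin subunit and ASF1B for a histone chaperone. These 5 genes were 2.63-fold to 2.87-fold lower in treated cells. Falls of that size are set by the measure, which picks genes that follow G0S2, and they test nothing. No other gene of the 10 was among them. Their absence carries no information either, since the next largest fall of the 10 was 1.41-fold, for DGAT1. The search took in only genes whose log2 CPM averaged 3 or more, so weakly expressed ones were left out.

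PNPLA2, the lipase that G0S2 restrains, moved little. PNPLA2 (ENSG00000177666, chromosome 11, 818902 to 825573) stood at 205, 187 and 186 CPM in untreated and 215, 224 and 231 CPM in treated libraries. The lowest treated library was only slightly above the highest untreated one. The rise was 1.16-fold (log2 0.21 ± 0.07 SE) and passed narrowly (edgeR adjusted p = 0.0318). It no longer passed without untreated replicate 2 or 3 or without APX2009 replicate 2 or 3 (edgeR adjusted p = 0.114, 0.136, 0.0613 and 0.0755), nor without a filter on low counts (edgeR adjusted p = 0.0761).

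ABHD5 (ENSG00000011198, chromosome 3, 43690108 to 43734371), the coactivator of PNPLA2, stood at 14.9, 17.8 and 19.7 CPM in untreated and 20.7, 18.0001 and 23.7 CPM in treated libraries. The groups overlapped, and the spread within the untreated group was wide. Its log2 change of 0.25 ± 0.13 (SE) did not pass (edgeR adjusted p = 0.149). Its exons share 170 bases with ANO10 on the other strand, so with the strand setting unknown some reads could belong to either gene.

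LIPE (ENSG00000079435, chromosome 19, 42401507 to 42427426), the hormone-sensitive lipase, stood at 12.2, 12.8 and 13.7 CPM in untreated and 8.73, 13.2 and 12.8 CPM in treated libraries. Only treated replicate 1 lay outside the untreated range, below it. The log2 change of -0.16 ± 0.15 (SE; edgeR adjusted p = 0.441) became 0.01 ± 0.10 without that library (edgeR adjusted p = 0.958). The antisense gene LIPE-AS1 shares 500 exonic bases with LIPE and held 16 to 35 counts a library.

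**Figure D2:**
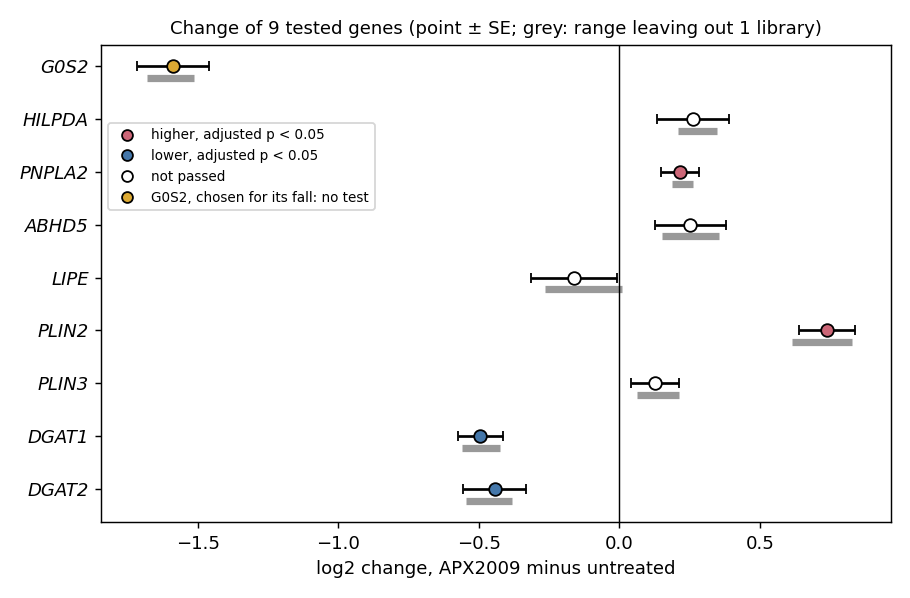
log2 change from untreated to APX2009 for the 9 tested genes (point, with its SE as the black bar) and the range of that change when each library is left out in turn (grey bar). G0S2 at -1.59 and PLIN2 at 0.74 lie farthest from 0, and only the grey bar of LIPE touches 0.

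The coat proteins differed. PLIN2 (ENSG00000147872, chromosome 9, 19108375 to 19149290), the perilipin that marks droplets in most non-adipose cells, stood at 49.5, 52.9 and 52.3 CPM in untreated and 75.0, 83.4 and 100.2 CPM in treated libraries. All treated libraries were higher, and they spread more widely than the untreated ones. PLIN2 rose 1.67-fold, its mean being 51.6 ± 1.81 CPM without and 86.2 ± 12.8 CPM with APX2009 (SD, n = 3). On the log2 scale this was 0.74 ± 0.10 (SE) and passed (edgeR adjusted p = 3.18e-04). The change was 0.62 to 0.83 when any library was left out, and 0.83 without APX2009 replicate 1.

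PLIN3 (ENSG00000105355, chromosome 19, 4838341 to 4867768), a perilipin that moves between cytosol and droplets, stood at 97.4, 107 and 99.8 CPM in untreated and 96.8, 115 and 120.2 CPM in treated libraries. Treated replicate 1 was the lowest of the 6 and the other treated libraries were the highest. The log2 change of 0.13 ± 0.09 (SE) did not pass (edgeR adjusted p = 0.285), while 0.21 ± 0.06 did so without APX2009 replicate 1 (edgeR adjusted p = 0.0120). The ratio of PLIN2 to PLIN3 per length was 0.282 ± 0.00823 in untreated and 0.430 ± 0.0303 in treated libraries (SD, n = 3), with no overlap. Over the longest transcript the mean ratios were 0.602 and 0.920.

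CIDEC (ENSG00000187288, chromosome 3, 9866711 to 9880254), a droplet fusion protein best known from fat tissue, had 0, 4 and 1 counts in untreated and 1, 1 and 0 in treated libraries. With 7 counts in all it was near the limit that a count of 0 allows, which is 3 counts or 0.112 to 0.144 CPM a library, so no change could be seen at this depth. This limit covers counting error only.

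Both triglyceride synthases fell to a like degree. DGAT1 (ENSG00000185000, chromosome 8, 144314584 to 144326910) stood at 112, 104 and 104 CPM in untreated and 68.0, 83.1 and 75.9 CPM in treated libraries, so the groups were well apart. It was 1.41-fold lower (log2 -0.49 ± 0.08 SE) and passed (edgeR adjusted p = 9.80e-04), and the change was -0.42 ± 0.06 without APX2009 replicate 1. Its exons share 139 bases with HSF1 on the other strand, a gene with 5119 to 6785 counts a library.

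DGAT2 (ENSG00000062282, chromosome 11, 75759512 to 75801535), an enzyme of the same reaction from an unrelated protein family, stood at 12.96, 12.93 and 13.44 CPM in untreated and 8.80, 9.20 and 10.97 CPM in treated libraries. Untreated libraries were nearly equal, and every treated one was lower. It was 1.36-fold lower (log2 -0.44 ± 0.11 SE) and passed (edgeR adjusted p = 0.0122), but narrowly missed the threshold without untreated replicate 3 (-0.42 ± 0.14; edgeR adjusted p = 0.0556). The ratio of DGAT1 to DGAT2 per length was 15.6 ± 0.831 in untreated and 15.1 ± 2.03 in treated libraries (SD, n = 3), and the groups overlapped.

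With library sizes set from the ERCC counts in place of TMM, 0 of the 8 genes tested beside G0S2 passed in edgeR, and 0 of them had an unadjusted p under 0.05. The sizes stayed close, with log2 changes of -1.57 for G0S2, 0.75 for PLIN2, -0.47 for DGAT1, -0.41 for DGAT2 and 0.27 for PNPLA2, while their standard errors grew to 0.48 to 0.55. Over all genes tested 136 passed with that scaling, 129 higher and 7 lower, where TMM gave 5119, with 2543 higher and 2576 lower.

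Levels can be set between genes only per length, as RPKM, which is CPM divided by the length of all exons in kilobases. In untreated cells PNPLA2 led at 50.1 ± 2.73 RPKM (SD, n = 3), above 94.2% of tested genes, followed by PLIN3 at 36.1 ± 1.78 and DGAT1 at 25.8 ± 1.07. G0S2 was next at 16.1 ± 1.28 RPKM and PLIN2 at 10.1 ± 0.356. HILPDA stood at 3.16 ± 0.149 RPKM, LIPE at 2.48 ± 0.153, ABHD5 at 2.31 ± 0.322, DGAT2 at 1.66 ± 0.0357 and CIDEC at 0.0355 ± 0.0431. Neighbours in this order did not overlap, with the exception of LIPE and ABHD5. In treated cells G0S2 at 5.35 ± 0.610 RPKM lay below PLIN2 at 16.9 ± 2.53, and ABHD5 at 2.76 ± 0.378 lay above LIPE at 2.22 ± 0.475, where the libraries overlapped. The order of G0S2 and PLIN2 in untreated cells depends on the length used: over the longest annotated transcript PLIN2 stood at 26.2 and G0S2 at 16.1 RPKM. In treated cells that length put PLIN2 at 43.7 RPKM above DGAT1 at 20.4, and HILPDA at 5.72 above G0S2 at 5.35.

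Set against the transcript of its target lipase, the G0S2 transcript was scarcer in every treated library. The ratio of G0S2 to PNPLA2 per length was 0.288, 0.361 and 0.316 in untreated and 0.0867, 0.0888 and 0.1002 in treated replicates 1, 2 and 3. The corresponding ratio of HILPDA to PNPLA2 was 0.0630 ± 0.000735 and 0.0651 ± 0.00534, and that of ABHD5 to PNPLA2 0.0465 ± 0.00860 and 0.0474 ± 0.00588 (SD, n = 3). These last ratios overlapped between the groups. G0S2 was chosen for its fall, so its ratios are descriptions too.

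**Figure D3:**
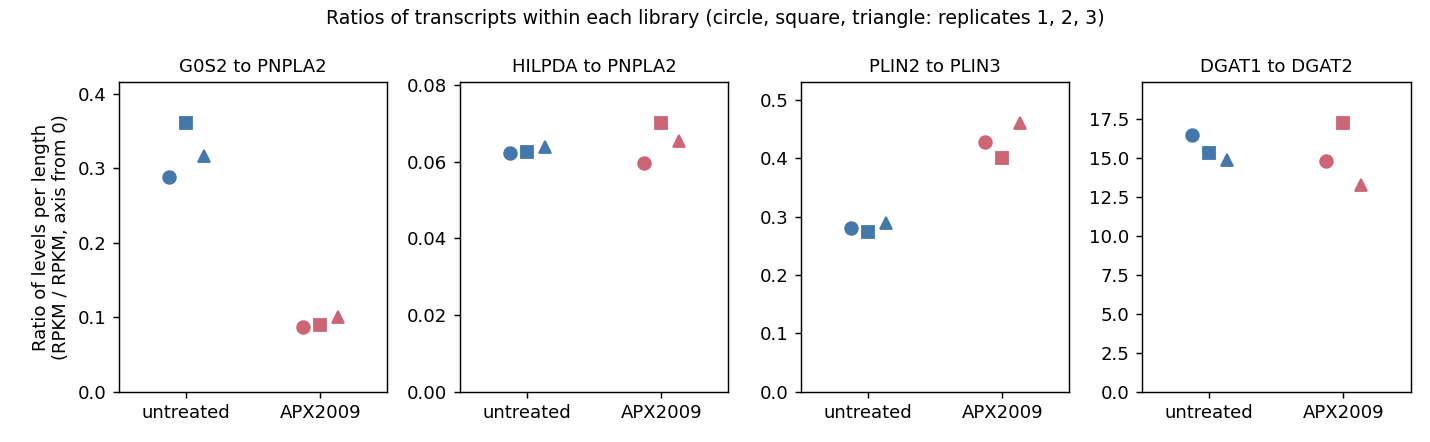
Ratios of levels per length (RPKM over RPKM, linear axes from 0) within each of the 3 untreated and 3 APX2009 libraries. G0S2 to PNPLA2 averaged 0.322 in untreated and 0.0919 in treated libraries and PLIN2 to PLIN3 averaged 0.282 and 0.430, with no overlap in either, while the groups overlapped for HILPDA to PNPLA2 and DGAT1 to DGAT2.

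Replicates of most of these genes scattered more in the treated libraries. The SD of log2 CPM was larger in the treated than in the untreated group for G0S2, HILPDA, LIPE, PLIN2, PLIN3, DGAT1 and DGAT2, and smaller for PNPLA2 (0.05 against 0.08) and ABHD5 (0.198 against 0.204). LIPE had the widest treated SD at 0.33, PLIN2 followed at 0.21, and DGAT2 had the narrowest untreated SD at 0.03. Among the treated libraries, replicate 1 lay apart from replicates 2 and 3 for LIPE, HILPDA and PLIN3. For G0S2, PLIN2 and DGAT2 it was replicate 3 that lay apart. Over all tested genes the median SD was 0.09 in untreated and 0.14 in treated libraries, a wider treated spread there too. In log2 CPM, APX2009 replicates 2 and 3 correlated at 0.993, and replicate 1 with them at 0.986 and 0.985. The part of replicate 1 in the wider spread was not tested.

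Among genes that build and coat droplets, other than the 10 above, 16 of 24 listed were tested, 5 rose and 3 fell, with a median log2 change of 0.14. For this and the lists that follow, the shares over all tested genes were 17.2% higher and 17.4% lower, 34.7% together, with a median of 0.02, and nothing particular to a list is read from its count. CAV1, the caveola protein that also reaches droplets, was 2.24-fold lower (116 ± 8.09 to 52.0 ± 4.40 CPM; edgeR adjusted p = 5.10e-06) and its partner CAVIN1 1.43-fold lower. PCYT1A, which controls phosphatidylcholine synthesis for growing droplets, rose 1.47-fold and the droplet GTPase RAB18 1.24-fold. The fat-cell perilipin PLIN1 was too low to be tested, and PLIN4 (1.76 to 1.64 CPM) and PLIN5 (0.955 to 0.765 CPM) did not pass.

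Of 22 listed genes of glyceride and sterol ester synthesis other than DGAT1 and DGAT2, 17 were tested. Of these 8 rose and 0 fell, beside 17.2% and 17.4% of all tested genes, with a median log2 change of 0.24, and 4 rose without untreated replicate 3. AGPAT5, which acylates lysophosphatidic acid, rose 2.37-fold (82.8 ± 7.84 to 196 ± 15.4 CPM; edgeR adjusted p = 5.77e-06). The glycerol-phosphate acyltransferase GPAT3 rose 1.65-fold, and the acyl-CoA synthetases ACSL1 and ACSL3, which activate fatty acids, 1.64-fold and 1.38-fold. The sterol acyltransferase SOAT1 did not pass (25.9 to 26.5 CPM).

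Of 20 other lipases and esterases listed 15 were tested, 2 rose and 2 fell, beside 34.7% of all tested genes that passed, with a median log2 change of -0.08. PNPLA8, a phospholipase of the PNPLA2 family, rose 1.88-fold, and the esterase AADAC 2.21-fold with a wide spread (7.52 ± 2.16 to 16.6 ± 6.10 CPM). The diacylglycerol lipase gene DAGLA and the endothelial lipase gene LIPG were 1.25-fold and 1.23-fold lower; neither call held in every set of 5 libraries, since DAGLA missed the threshold without untreated replicate 2 and LIPG without untreated replicate 1 (edgeR adjusted p = 0.0581 and 0.0649). MGLL, which ends the breakdown that PNPLA2 and LIPE begin, was 110.5 and 109.4 CPM and did not pass.

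Of 21 transcriptional regulators known to act on lipid genes, all of them tested, 1 rose and 7 fell, beside 17.2% and 17.4% of all tested genes, with a median log2 change of -0.12, and without APX2009 replicate 1, 3 rose and 8 fell. TFEB, a regulator of lysosomes and lipophagy, was 1.83-fold lower, the carbohydrate-response factor gene MLXIPL 1.70-fold and the lipogenic factor gene SREBF1 1.36-fold lower, while the coactivator gene PPARGC1A rose 1.46-fold. Their log2 changes, in that order, were -0.87, -0.76, -0.44 and 0.54. Without APX2009 replicate 1 they were -0.74, -0.92, -0.34 and 0.48. HIF1A and EPAS1, the hypoxia factors under which HILPDA is induced, did not pass, at 237 to 230.4 and 247 to 221.5 CPM.

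The last list held fatty acid uptake genes and targets of PPAR receptors, which also induce PLIN2 and G0S2 in other tissues. Of the receptor genes, counted among the regulators above, PPARD was 1.26-fold and PPARG 1.21-fold lower (edgeR adjusted p = 0.00882 and 0.0132). PPARA did not pass, at 72.3 to 79.6 CPM. Of 29 listed 22 were tested, 6 rose and 3 fell, beside 17.2% and 17.4% of all tested genes, with a median log2 change of 0.07. PDK4, which restrains glucose oxidation, rose 3.14-fold (9.68 ± 0.953 to 30.4 ± 2.30 CPM; edgeR adjusted p = 2.08e-06), VNN1 3.59-fold from a low level (1.09 ± 0.356 to 3.88 ± 1.38 CPM) and the thiolase gene ACAA2 1.47-fold. The fatty acid transporter gene SLC27A1 was 1.51-fold lower. ANGPTL4, a common PPAR and hypoxia target, did not pass (8.65 to 10.2 CPM). With ERCC scaling none of these 5 lists held a gene that passed in edgeR; 1, 1, 2, 0 and 3 of their genes, in the order given, had an unadjusted p under 0.05.

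**Figure D4:**
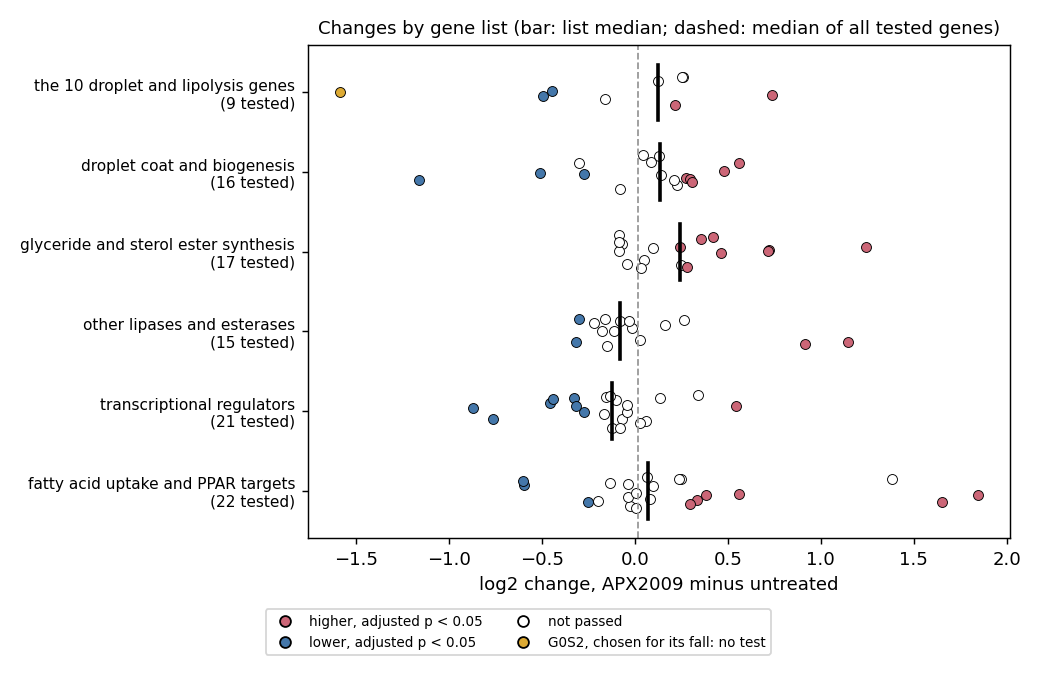
log2 change from untreated to APX2009 for every tested gene of the 6 lists (1 point a gene, spread vertically at random), with the list median as a black bar and the median of all tested genes, 0.02, dashed. The synthesis list has 8 points called higher and none called lower, and G0S2 at -1.59 is the leftmost point.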

How the data were processed

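The authors deposited raw, unnormalized counts, as whole numbers, for Ensembl genes in 6 libraries, along with 92 ERCC spike-in rows. Per the submitters' processing notes, Trimmomatic 0.36, STAR 2.5.2b, featureCounts and Subread 1.5.2 were used on GRCh38; the annotation release and strand setting used for counting are not stated there. Groups and replicate numbers came from the sample titles. GENCODE 29 (GRCh38) gave symbols, positions and exon lengths for 57447 of 58051 IDs.

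ERCC rows were kept out of library sizes. Low genes were removed with filterByExpr (default settings), TMM factors were applied, and treated libraries were compared with untreated ones by the quasi-likelihood test of edgeR 4.0.16 (R 4.3.3), with Benjamini-Hochberg adjustment over 14773 genes. A gene rose or fell at an adjusted p under 0.05. SEs derive from the F statistic, and CPM and RPKM use TMM-scaled library sizes. The step was tested on simulated counts. DESeq2 1.42.0 and limma 3.58.1 (voom) were alternatives. Alternatives also covered scaling, filters, the threshold, left-out libraries and a replicate block.

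The genes, the lists (5 of pathway genes, 5 of cell type markers) and the tests were chosen with earlier results of these data known. Named were the 10 genes, APEX1, the 4 smallest p of each pathway list and the 5 genes most like G0S2; a few others were named after their values were seen. Sequences are from RefSeq (GRCh38.p14).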

Additional observations from a re-analysis of the deposited data

How the results depend on the processing

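With ERCC scaling the number of genes called fell from 5119 to 136 over the whole table, and to 0 for the droplet and lipolysis genes and for each of the 5 pathway lists, and the cause was not tested. At an adjusted p under 0.01, 3057 of 14773 genes tested were called. Among them were 3 of 9 droplet and lipolysis genes, a count that includes G0S2. By list, they held 6 of 16 coat and biogenesis genes, 4 of 17 of glyceride and sterol ester synthesis and 2 of 15 lipases and esterases. The remaining lists gave 5 of 21 regulators and 6 of 22 uptake genes and PPAR targets. Nothing particular to a list is read from these counts. Leaving out each library in turn gave 3503 to 5709 calls over the whole table, where 14987 to 15142 genes were tested. Of the 9 tested droplet and lipolysis genes 3 to 7 were called (counts that include G0S2, which was chosen for its fall). The lists gave 4 to 8 of 17 synthesis genes, 6 to 9 of 16 coat and biogenesis genes and 3 to 4 of 15 lipases and esterases. They also gave 6 to 11 of 21 regulators and 7 to 10 of 22 uptake genes and PPAR targets. Of 490 values of 35 single named genes under the alternatives, 449 kept their direction and their side of the threshold, 38 lost the call (31 of them outside the left-out libraries), 2 gained it and 1 changed sign, that of LIPE without APX2009 replicate 1 (0.0079, in a range of -0.2634 to 0.0079 over the left-out libraries). Most of these genes were named for a small p or for likeness to G0S2 in this same comparison. That they kept their calls was therefore largely set by the choice and tests nothing. With ERCC scaling, every called gene among the 10 and the 5 pathway lists lost its call. Over the longest transcript in place of all exons, untreated levels were 70.6 RPKM for PNPLA2, 43.5 for PLIN3, 28.7 for DGAT1, 26.2 for PLIN2, 4.77 for HILPDA, 3.38 for LIPE, 3.25 for ABHD5 and 2.21 for DGAT2.

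Whether libraries with the same replicate number were paired was not settled here. Deviations of untreated and treated libraries with the same number correlated at 0.14, 0.08 and 0.01 for replicates 1, 2 and 3. The value for replicate 1 was the highest of all pairs, while untreated replicate 2 correlated best with APX2009 replicate 3 (0.11). Deviations cancel out within each group, so these values depend on one another and cannot exclude pairing. With the replicate number as a block, 5501 genes were called, against 5119 without it, and 5 of the 9 tested droplet and lipolysis genes as without it. Both counts of 5 include G0S2, which was chosen for its fall.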
